A study of Capra hircus with 9 samples.

Results

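The spliceosome genes described here are the transcripts that the authors' pathway table lists under the KEGG pathway Spliceosome. The list held 31 transcripts of 24 assembled components, out of 9131 transcripts of 6477 components in the authors' differential table. A component is a group of assembled sequences, named comp followed by a number. Among the members, the listed transcript with the highest mean over the 3 stages stood for its component. For counts over all components, the choice was made among all transcripts of the table. Members shared with the pathway of protein processing in the endoplasmic reticulum were to be left out, but none of the pathway rows used here has that name. This step could therefore not be applied, and HSP70 chaperones stayed among the members. The members fall into 17 components with 14 descriptions of splicing proteins and 7 components whose description names the HSP70 chaperones 1 and 8 (heat shock proteins), which are reported apart where they differ. Of the 31 transcripts, 16 carried the functional class RNA processing and modification in the authors' table. The members cover the Sm core, the U1, U2 and U4/U6 particles and the Prp19 complex, while SF3 subunits, U5-specific proteins, SR proteins and hnRNPs are not among them and were not analysed here.

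Mammary gland RNA of Xinong Saanen goats, a dairy breed, was sequenced at 3 stages. Lactating glands were taken 100 days after kidding, dry-off glands 310 days after kidding, and non-lactating glands from goats neither in milk nor pregnant, with 3 samples per stage and no treatment named in the labels. The values used are stage means in RPKM (read numbers divided by transcript length and by library size), as the authors computed them, with their p-value and false discovery rate (FDR) for each pair of stages. No value per sample was analysed here, so no SD accompanies a mean, and because the labels do not say whether samples came from separate animals, the p-values cover the spread among the sequenced samples only, which may be technical.

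The spliceosome removes introns from nuclear pre-mRNA. Its small nuclear ribonucleoproteins (snRNPs) each consist of a small RNA bound by a ring of Sm proteins, or the related LSm proteins for U6, plus proteins of their own. U1 recognises the start of an intron and U2 its branch point, after which the U4/U6.U5 tri-snRNP joins and the Prp19 complex takes part in forming the active centre. These genes are expressed in all nucleated cells, so in whole gland tissue their RNA comes from secretory, stromal and immune cells together, and fewer cells of a type and less RNA per cell cannot be told apart.

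All 24 components had a higher mean in dry-off than in lactation, as did 97.7% of all components. Of the 24, 13 passed the authors' FDR below 0.05, all higher in dry-off. Over all components, 63.4% passed as higher in dry-off and 0.618% as lower, so the members' 13 of 24 lay near the background. Without the heat shock components 11 of 17 passed, and of the heat shock components 2 of 7. The median log2 ratio of dry-off over lactation was 1.96 for the 24 components, with a range of 1.02 to 5.36, against a median of 2.25 over all components. For the 17 splicing components alone it was 1.78, with a range of 1.02 to 2.45. At an unadjusted p under 0.05, 22 of 24 were higher in dry-off, beside 85.6% of all components. Counted by transcript, 18 of 31 passed the FDR threshold, beside 65.9% of all transcripts.

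**Figure D1:**
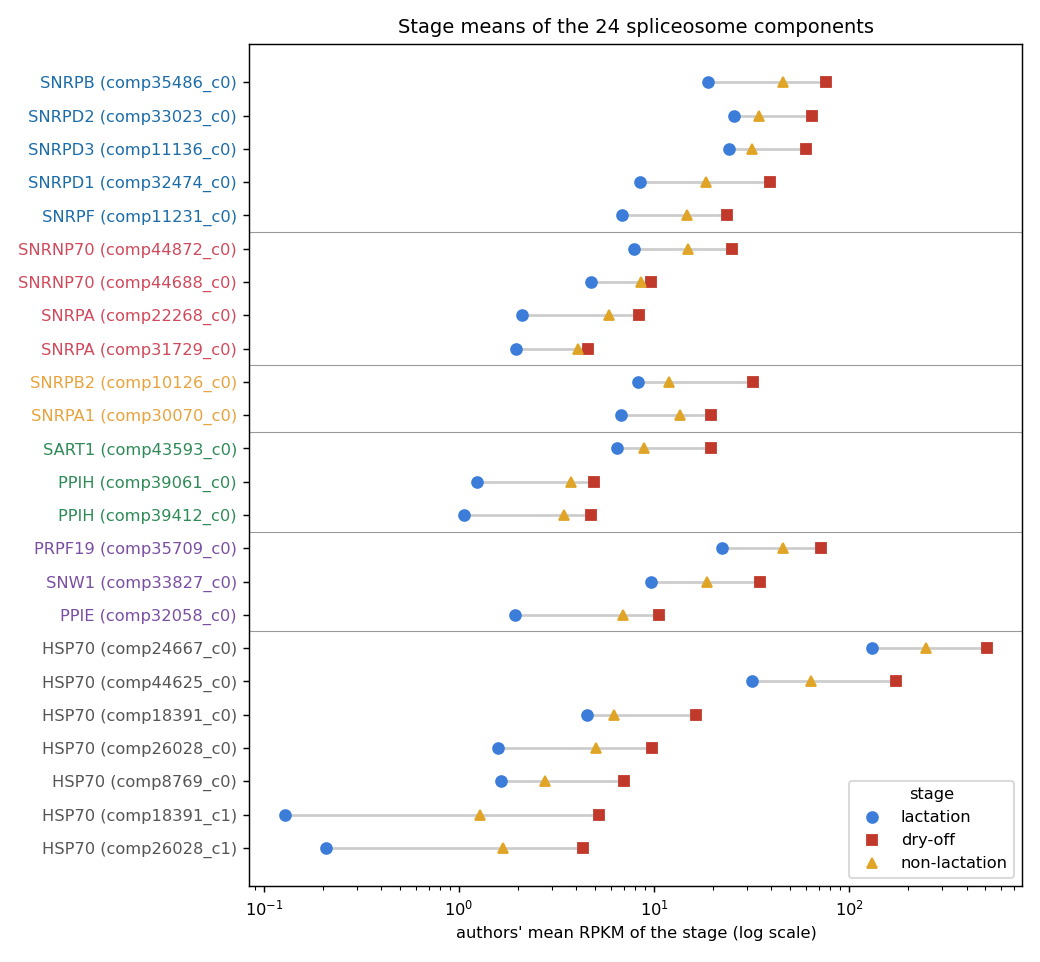
Authors' mean RPKM of each of the 24 components on a log scale, one row per component, grouped by role and coloured in the row label, with one symbol per stage (3 samples each, no error available). In every row the lactation mean is the lowest, the dry-off mean the highest and the non-lactation mean lies between them.

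The Sm core proteins form the ring around the small nuclear RNAs, and 5 of them were measured. SNRPB, the source of the B and B' proteins, had a mean of 76.4 RPKM in dry-off, against 18.9 RPKM in lactation. SNRPD1 had 39.2 RPKM in dry-off, against 8.44 RPKM in lactation, and SNRPD3 had 60.3 RPKM in dry-off, against 24.2 RPKM in lactation. These 3 Sm genes rose in dry-off, with log2 ratios of 2.02 for SNRPB, 2.21 for SNRPD1 and 1.32 for SNRPD3, and FDRs of 0.00520, 0.0192 and 0.0178 in that order in the authors' deposited table. SNRPB had the smallest FDR among the transcripts that stood for a component. SNRPD2 had 64.9 RPKM in dry-off, against 25.6 RPKM in lactation (FDR 0.0570 in the authors' deposited table). SNRPF had 23.7 RPKM in dry-off, against 6.89 RPKM in lactation (FDR 0.0580 in the authors' deposited table). Both missed the threshold, although their ratios, log2 1.34 and 1.78, lay within the range of the Sm genes that passed.

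A finished ring holds a single copy of each Sm protein, whereas the RPKM levels of the 5 Sm transcripts that stood for a component were uneven at every stage. The highest Sm mean was 3.72 times the lowest in lactation, 3.22 times in dry-off and 3.12 times in non-lactation, and SNRPF was the lowest each time. SNRPD2 was the highest in lactation and SNRPB in the other stages. SNRPB is the Sm gene with a further listed transcript, and with both of its transcripts summed it was the highest at every stage. The highest mean was then 5.05 times the lowest in lactation, 5.76 times in dry-off and 5.74 times in non-lactation. Of the remaining Sm genes, SNRPE was not analysed here. SNRPG had 1 transcript with its description, which was absent from the differential table, so its levels are not given.

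The U1 snRNP proteins recognise the 5' splice site. SNRNP70, the largest of the U1-specific proteins, was represented by 2 components. The first, comp44872_c0, had a mean of 25.0 RPKM in dry-off, against 7.92 RPKM in lactation, and rose by log2 1.66 (FDR 0.00912 in the authors' deposited table). The second, comp44688_c0, had 9.65 RPKM in dry-off, against 4.75 RPKM in lactation (FDR 0.0661 in the authors' deposited table), and its log2 ratio of 1.02 was the smallest of all members. SNRPA, which binds a stem-loop of the U1 RNA, was also split. Its component comp22268_c0 rose by log2 2.00, with 8.40 RPKM in dry-off, against 2.09 RPKM in lactation (FDR 0.00582 in the authors' deposited table). The other SNRPA component, comp31729_c0, had 4.57 RPKM in dry-off, against 1.97 RPKM in lactation (FDR 0.103 in the authors' deposited table). Thus 1 component of each of these U1 genes passed and 1 did not. The U1 protein C had 1 transcript with its description, which was likewise absent from the differential table. Whether 2 components with 1 description are copies of a gene, fragments or related genes is not given in the files, and short reads of near-identical sequences cannot be assigned to one of them with certainty.

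The U2 proteins A' (SNRPA1) and B'' (SNRPB2) bind the U2 RNA together. SNRPA1 rose by log2 1.53, with 19.5 RPKM in dry-off, against 6.75 RPKM in lactation (FDR 0.0198 in the authors' deposited table). SNRPB2 had 32.0 RPKM in dry-off, against 8.31 RPKM in lactation (FDR 0.0763 in the authors' deposited table). SNRPB2 thus had the larger ratio, log2 1.94, but did not pass. SNRPB2 is closely related in sequence to SNRPA, so reads of the 2 genes may be confused.

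All 3 components of the U4/U6 and tri-snRNP group passed as higher in dry-off, beside 63.4% of all components. SART1, which helps the tri-snRNP join the spliceosome, had 19.5 RPKM in dry-off, against 6.43 RPKM in lactation (log2 1.60, FDR 0.0140 in the authors' deposited table). PPIH, a cyclophilin bound to the U4/U6 proteins, was represented by 2 components with similar values, which may not be separate genes. Component comp39061_c0 had 4.93 RPKM in dry-off, against 1.24 RPKM in lactation (log2 1.99, FDR 0.00918 in the authors' deposited table). Component comp39412_c0 had 4.73 RPKM in dry-off, against 1.06 RPKM in lactation (log2 2.16, FDR 0.0204 in the authors' deposited table).

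All 3 Prp19-related components had a higher mean in dry-off, and 2 passed the threshold, beside 63.4% of all components. SNW1, a component of the activated spliceosome that also acts as a transcriptional coregulator, had 35.0 RPKM in dry-off, against 9.61 RPKM in lactation (log2 1.87, FDR 0.00908 in the authors' deposited table). PPIE, a nuclear cyclophilin, had 10.6 RPKM in dry-off, against 1.95 RPKM in lactation (log2 2.45, FDR 0.0186 in the authors' deposited table), the largest ratio among the splicing proteins. PRPF19, the ubiquitin ligase that gives the complex its name, had 71.5 RPKM in dry-off, against 22.4 RPKM in lactation (log2 1.67). Its FDR of 0.0559 in the authors' deposited table placed it just outside the threshold. The PPIE transcript shared its component with a transcript described as PPIF, a mitochondrial cyclophilin, so these 2 can share reads. The mean of that PPIF transcript was 2.52 RPKM in lactation, it was 7.88 RPKM in dry-off, and its highest value was 10.8 RPKM in non-lactation, an order that no member showed. It is not in the pathway list. Because its mean over the 3 stages exceeded that of PPIE, it stood for this component in counts over all components.

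The heat shock components held most of the members' RPKM. The description covers heat-inducible HSPA1 and constitutive HSPA8, a chaperone that KEGG lists with the Prp19 complex, and the files do not say which gene each component represents. Component comp24667_c0 had a mean of 511 RPKM in dry-off, against 131 RPKM in lactation (log2 1.97), and comp44625_c0 had 174 RPKM in dry-off, against 32.0 RPKM in lactation (log2 2.44). Neither passed, with FDRs of 0.113 and 0.0768 in the authors' deposited table. The first of them alone made up 41.3% of the members' summed mean RPKM in dry-off and 39.7% in lactation.

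The remaining heat shock components had low means in lactation. Component comp8769_c0 rose by log2 2.09, with 6.98 RPKM in dry-off, against 1.64 RPKM in lactation (FDR 0.0175 in the authors' deposited table). Component comp26028_c1 rose by log2 4.38, with 4.31 RPKM in dry-off, against 0.208 RPKM in lactation (FDR 0.0415 in the authors' deposited table). Component comp18391_c1 had the largest ratio of all members, log2 5.36, with 5.23 RPKM in dry-off, against 0.128 RPKM in lactation, and did not pass (FDR 0.0684 in the authors' deposited table). Both of these last ratios rest on lactation means below 1 RPKM, where no splicing protein component lay. Component comp18391_c0 had 16.4 RPKM in dry-off, against 4.53 RPKM in lactation (FDR 0.0516), and comp26028_c0 had 9.78 RPKM in dry-off, against 1.59 RPKM in lactation (FDR 0.0916), both in the authors' deposited table. By their names comp18391_c0 and comp18391_c1, and likewise comp26028_c0 and comp26028_c1, belong to common assembly groups and may not be separate genes.

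**Figure D2:**
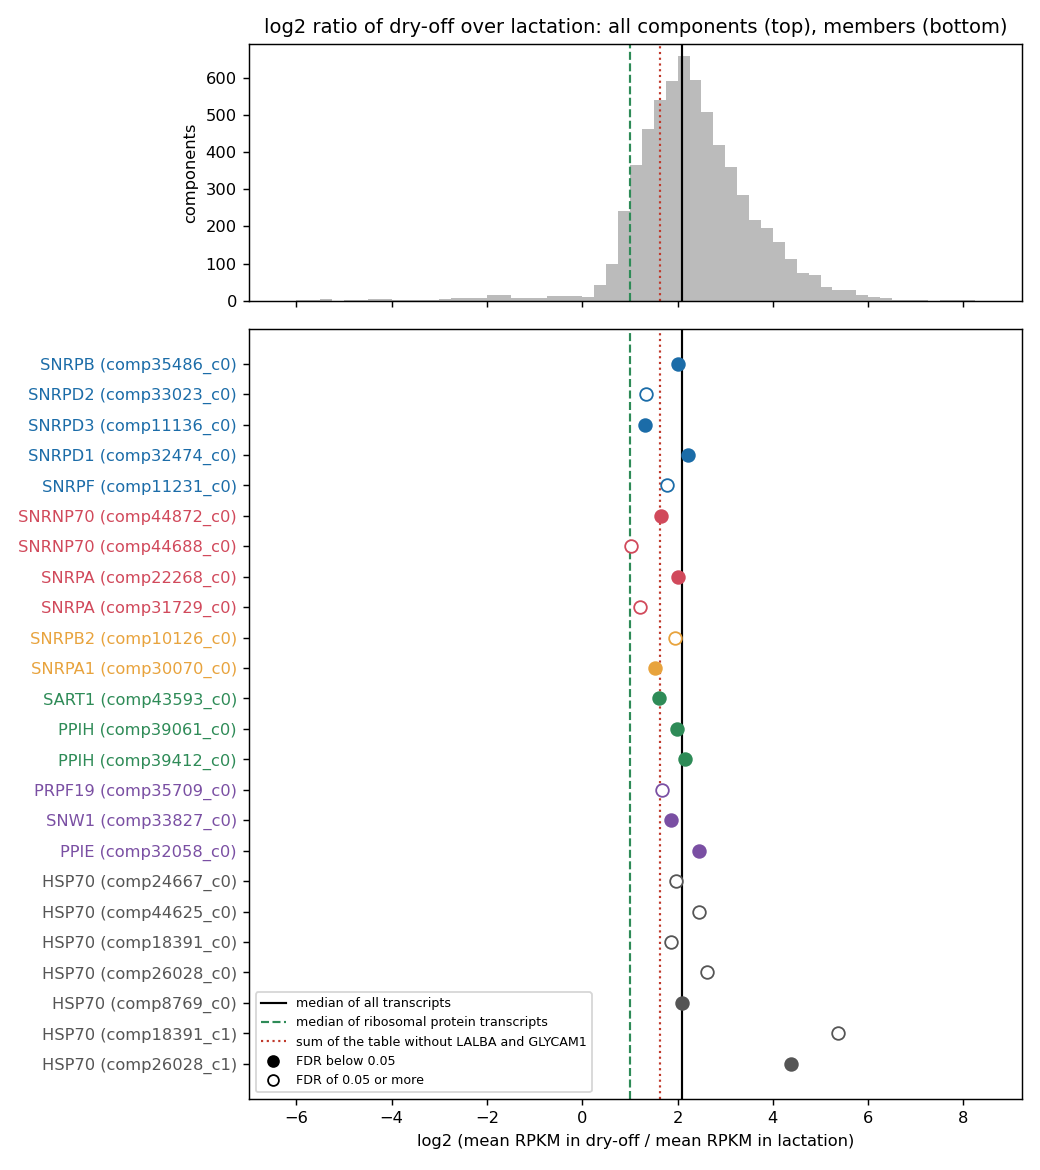
Top, number of components by log2 ratio of dry-off over lactation, for the 6281 components with a finite ratio. Bottom, the same ratio for the 24 members, coloured by role, filled where the authors' FDR was below 0.05, and vertical lines mark 3 reference shifts: the median of all transcripts (2.09), the median of ribosomal protein transcripts (1.00) and the change in the table's summed RPKM without LALBA and GLYCAM1 (1.62). Most members lie left of the solid line and all lie right of the dashed one.

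The direction of these differences depended on what they were set against. The median log2 ratio of all transcripts was 2.09 for dry-off over lactation, and 8 of the 24 members lay above it and 16 below. That median counts every transcript, whereas the members count once per component. The median over all components was higher, at 2.25. The median of 44 ribosomal protein transcripts was 1.00, and all 24 members lay above that. RPKM is a share of a library, and transcripts of the milk protein genes LALBA and GLYCAM1 made up 0.523% of the table's summed mean RPKM in dry-off and 49.9% in lactation. Their part in the members' differences was not tested, but the summed RPKM of the table without these 3 transcripts was itself higher in dry-off by log2 1.62. Against that sum 18 members lay above and 6 below, or 11 above among the 17 splicing proteins, and the median of the 24 was 0.33.

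As a share of the differential table's summed mean RPKM without LALBA and GLYCAM1, the 17 splicing components were nearly level across the stages. In lactation they held 0.190%, in dry-off 0.198% and in non-lactation 0.188%. In lactation the Sm core held 0.101%, in dry-off 0.103% and in non-lactation 0.0934%. In lactation the U1 proteins held 0.0200%, in dry-off 0.0185% and in non-lactation 0.0215%. The 7 heat shock components held a share 1.38-fold higher in dry-off than in lactation. In lactation it was 0.204%, in dry-off 0.283% and in non-lactation 0.211%. Beside these, in lactation RNA polymerase components held 0.170%, in dry-off 0.168% and in non-lactation 0.162%. In lactation proteasome components held 0.949%, in dry-off 1.16% and in non-lactation 0.936%. Ribosome components had their highest share at the first stage, as in lactation they held 30.3%, in dry-off 19.6% and in non-lactation 21.1%. These shares are sums of stage means with no error and no test. Their base is the differential table, a selected list, so they are not shares of a whole library. Of 6 milk-secretion markers looked up, 3 were found in it.

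**Figure D3:**
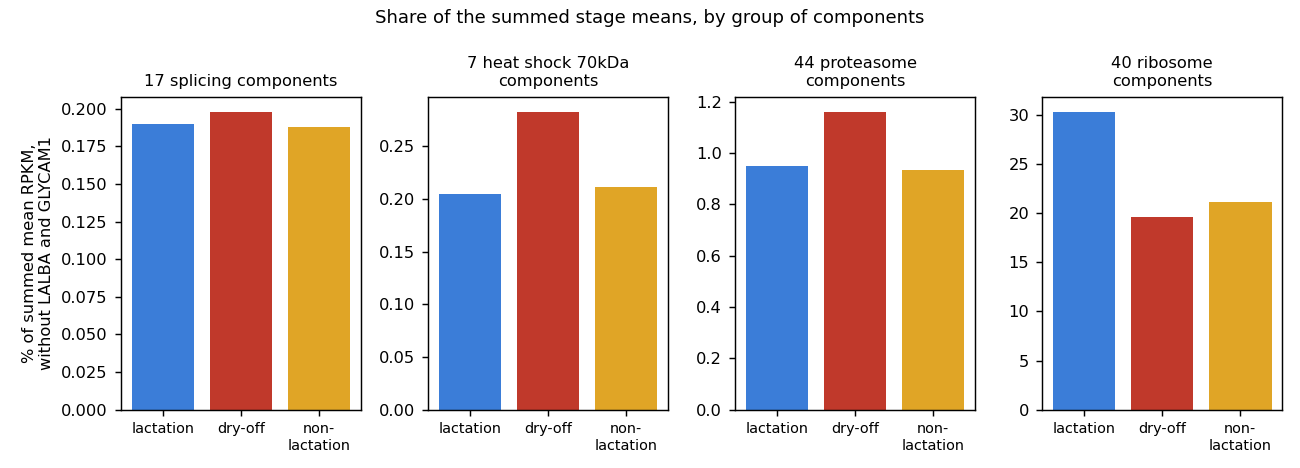
Share of the table's summed mean RPKM, after removal of the LALBA and GLYCAM1 transcripts, held by 4 groups of components in each stage; each panel has its own axis from 0, and no error is available. The 17 splicing components stay between 0.188% and 0.198%, while the heat shock and proteasome shares are highest in dry-off and the ribosome share is highest in lactation.

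Beside other pathway rows, 42 of 44 proteasome components and 18 of 26 RNA polymerase components passed the FDR threshold as higher in dry-off. So did 17 of 40 ribosome components. Over all components the share was 63.4%, beside which these counts are to be read. Their median log2 ratios were 1.84 for proteasome, 2.12 for RNA polymerase and 1.00 for ribosome. A further 57 components of the class RNA processing and modification outside the members had a median of 2.00, and 39 (68.4%) passed as higher. Their highest mean equalled that of the ribosome components at every stage, so these groups appear to share a component. The members' share of passing components, 54.2%, lay above that of the ribosome (42.5%) and below those of RNA polymerase (69.2%) and proteasome (95.5%), and for the 17 splicing components it was 64.7%. The median of the splicing components, 1.78, lay above that of the ribosome and below those of proteasome and RNA polymerase. These differences were not tested.

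Markers of stromal and immune cells also had higher means in dry-off than in lactation. In that comparison 63.4% of all components passed as higher, beside which the counts below are to be read. Of 28 markers measured out of 38 listed, none was at 0 in any stage. The 6 macrophage markers summed to 589 RPKM in dry-off, against 61.8 RPKM in lactation, with 5 passing as higher. The 5 T and NK cell markers summed to 239 RPKM in dry-off, against 14.2 RPKM in lactation, with 3 passing, the 3 B cell markers to 43.6 RPKM against 2.60 RPKM, with 1 passing, and the 2 leukocyte markers PTPRC and CD74 to 2053 RPKM against 133 RPKM, with 1 passing. Most of the last sum was CD74, the MHC class II invariant chain of antigen-presenting cells, which passed. The pan-leukocyte gene PTPRC had 48.7 RPKM in dry-off, against 2.57 RPKM in lactation (FDR 0.0744 in the authors' deposited table). The 3 fibroblast markers summed to 1634 RPKM in dry-off, against 216 RPKM in lactation, with 3 passing, and the 4 endothelial markers to 139 RPKM against 24.5 RPKM, with 2 passing. The 2 luminal markers EPCAM and CDH1 summed to 131 RPKM in dry-off, against 47.7 RPKM in lactation, with 1 passing, and the 3 milk-secretion markers LALBA, GLYCAM1 and XDH to 1175 RPKM against 72254 RPKM, all 3 lower. In non-lactation the sums lay between those of the other stages for all 8 lists, for example 236 RPKM for macrophages, 85.0 RPKM for T and NK cells and 982 RPKM for fibroblasts. Among the milk-secretion markers this held for LALBA and GLYCAM1, whereas XDH had its highest mean, 110 RPKM, in non-lactation. The part of these cell types in the members' differences was not tested.

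In non-lactating glands every member again had a higher mean than in lactation, as did 97.8% of all components. None of the members passed the authors' FDR, where 0.0154% of all components passed as higher. The smallest FDR was 0.127, that of SNRPF, in the authors' deposited table. SNRPF had a mean of 14.8 RPKM in non-lactation, against 6.89 RPKM in lactation (log2 1.10). At an unadjusted p under 0.05, 11 of the 24 were higher, beside 41.4% of all components, by the test of the deposited table, which it does not name. All 11 were splicing proteins (11 of 17), and 0 of the 7 heat shock components were among them, a difference that was not tested. The median log2 ratio of the members was 1.03, against 1.496 over all components. The reference again set the direction: 7 members lay above and 17 below the median of all transcripts (1.39), whereas 23 lay above and 1 below that of ribosomal protein transcripts (0.39).

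The members differed in how far the non-lactation mean stood from lactation. On the log2 scale, the ratio of non-lactation over lactation was a median of 61.8% of the ratio of dry-off over lactation, with a range of 25.0% to 85.8%, and the median over all components higher in dry-off was 67.0%. SNRPD2, SNRPD3, SNRPB2 and SART1 stood near lactation, at 32.6%, 29.8%, 27.1% and 28.9% in that order, and the heat shock component comp18391_c0 had the lowest position, 25.0%. SNRPD3 had 31.8 RPKM in non-lactation, against 24.2 RPKM in lactation, and SART1 had 8.85 RPKM in non-lactation, against 6.43 RPKM in lactation. Both PPIH components stood near dry-off, at 80.0% and 79.3%, as did the SNRPA and SNRNP70 components that had not passed, at 85.8% and 83.2%. In between lay SNRPB, with 46.1 RPKM in non-lactation, against 18.9 RPKM in lactation, and PRPF19, with 46.0 RPKM in non-lactation, against 22.4 RPKM in lactation. The PPIH component comp39061_c0 had 3.74 RPKM in non-lactation, against 1.24 RPKM in lactation. The U2 partners SNRPA1 and SNRPB2 had positions of 66.0% and 27.1%. These positions have no error, and differences between them were not tested.

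**Figure D4:**
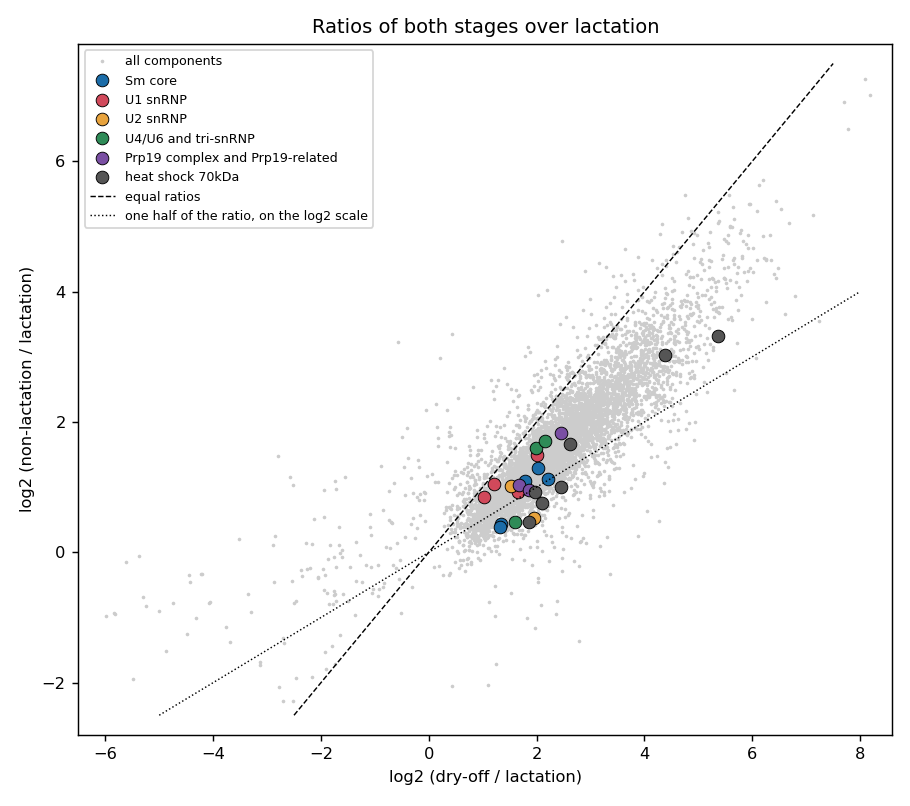
Log2 ratio of non-lactation over lactation (vertical) against log2 ratio of dry-off over lactation (horizontal), for 6275 components with both ratios finite (grey) and the 24 members (coloured by role). Both axes share the lactation means, and the dotted line marks a vertical value of 50% of the horizontal one. All members lie below the dashed line of equal ratios, and the 2 heat shock components with lactation means below 1 RPKM lie far to the right of the others.

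Against dry-off, every member had a lower mean in non-lactation, while 8.37% of all components had a higher one. None of the members passed the authors' FDR, where 0% of all components passed as lower. The smallest FDR among the members was 0.155, that of SART1, in the authors' deposited table. SART1 had 8.85 RPKM in non-lactation, against 19.5 RPKM in dry-off (log2 −1.14). At an unadjusted p under 0.05, 12 of 24 were lower in non-lactation, beside 38.1% of all components, among them 4 of 5 Sm genes and 4 of 7 heat shock components. The median log2 ratio was −0.91 for the members and −0.73 over all components. It was −0.69 for the 17 splicing proteins and −1.36 for the heat shock components. Component comp24667_c0 had 249 RPKM in non-lactation, against 511 RPKM in dry-off, and comp44625_c0 had 63.8 RPKM in non-lactation, against 174 RPKM in dry-off. The smallest differences were those of the SNRNP70 component comp44688_c0, with 8.56 RPKM in non-lactation, against 9.65 RPKM in dry-off, and of the SNRPA component comp31729_c0, with 4.05 RPKM in non-lactation, against 4.57 RPKM in dry-off.

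All 24 members therefore had the same order of means, lowest in lactation, highest in dry-off and intermediate in non-lactation. The same order was found in 90.7% of all components. In the authors' grouping of transcripts into numbered profiles, 17 members were in profile 14, which held 56.3% of all components, 6 in profile 11 and 1 in profile 10. The 6 in profile 11 were PPIE, both PPIH components, both SNRPA components and the SNRNP70 component comp44688_c0. Profile 11 held 29.4% of all components. In lactation the median mean of its components was 0.963 RPKM, in dry-off 5.73 RPKM and in non-lactation 4.20 RPKM. The profiles were made from the same samples and are no separate measurement.

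In 6 components more than 1 transcript was listed, and their proportions shifted little. In lactation the minor SNRPA1 transcript held 22.7% of its component's RPKM, in dry-off 20.0% and in non-lactation 18.3%. Of the 3 SNRNP70 transcripts of comp44872_c0, in lactation the main one held 43.98%, in dry-off 47.5% and in non-lactation 45.6%. In the other 4 components no transcript's share moved by more than 1.54 percentage points between stages. The transcripts of a component share reads, and the authors' rule for assigning them, on which these proportions depend, was not stated.

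For each transcript the authors also counted how many of the other 9130 were correlated with it. The members had a median of 7198 correlated transcripts, with a range of 4913 to 8002, against a median of 7510 over all components, and 14 of 24 lay below that median. SNRPA1 had 8002, and SNRPB and PRPF19 had 7984 each. The SNRPA component comp31729_c0 had the fewest, 4913, followed by the heat shock component comp18391_c0 with 5176, the SNRNP70 component comp44688_c0 with 5321 and SNRPB2 with 5326. The correlation threshold behind these numbers was not stated.

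Several members belong to other pathway rows as well. SNRPB, SNRPD1 and SNRPD3, which carry the Sm epitopes of lupus autoantibodies, were also listed under systemic lupus erythematosus, PRPF19 under ubiquitin mediated proteolysis and SNW1 under Notch signalling. All 7 heat shock transcripts were also listed under MAPK signalling, endocytosis and antigen processing and presentation.

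Few splicing genes outside the pathway row were matched by description within the differential table. Genes described only outside that selected list could not be found this way. Of 56 genes listed for SR protein kinases, snRNP assembly, the minor spliceosome, splicing regulators and 3' end processing, 1 matched a single description. This was CLNS1A, a subunit of the complex that methylates and delivers Sm proteins, and it rose by log2 2.14, with 12.99 RPKM in dry-off, against 2.94 RPKM in lactation (FDR 0.00890 in the authors' deposited table). A further 4 descriptions stand for families. Both SRPK components, 4 of 5 CDC-like kinase and 3 of 5 poly(A) polymerase components passed as higher in dry-off, beside 63.4% of all components. Both components described as pre-mRNA-processing factor 4, which may be PRPF4 or the kinase PRPF4B, also passed. The most abundant SRPK transcript, of the kinases that phosphorylate SR proteins, had 11.4 RPKM in dry-off, against 7.19 RPKM in lactation (log2 0.66, FDR 0.0495 in the authors' deposited table). The other SRPK component, with a lower mean over the 3 stages, had a log2 ratio of 3.91, and its levels are not given here. A further 4 descriptions related to splicing were looked up after their values had been seen. UHMK1, a kinase that phosphorylates the splicing factor SF1, rose by log2 3.76 (FDR 0.0308 in the authors' deposited table). It had 4.27 RPKM in dry-off, against 0.315 RPKM in lactation, so its ratio rests on a lactation mean below 1 RPKM. SYMPK, a scaffold of 3' end processing, had 12.9 RPKM in dry-off, against 3.96 RPKM in lactation (FDR 0.0732 in the authors' deposited table). An snRNP protein of unspecified name had 72.2 RPKM in dry-off, against 31.4 RPKM in lactation (FDR 0.0864 in the authors' deposited table). SNRPN, the close relative of SNRPB, had 8.25 RPKM in dry-off, against 4.23 RPKM in lactation for its most abundant transcript (FDR 0.0676 in the authors' deposited table), while 1 of its 2 components passed.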

How the data were processed

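The authors' deposited tables used here hold mean RPKM per stage, p-values and FDR for each pair of stages from a test that the file headers do not name. Per the submitters' processing notes FastQC was run; the assembler, aligner, genome build and counting method were not given in the sources used here, and depth is unknown. The pathway, profile and correlation tables were used as deposited.

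Log2 ratios were computed from the authors' means with nothing added; 190 components listed at 0 in lactation stayed out of medians over that stage. Calls are the authors' FDR below 0.05, and no test of expression was added. The design foresaw a model on values per sample, which stage means do not allow. Descriptions gave 14 gene symbols, all 14 found in the RefSeq gene table (ARS1.2). In each role group the 2 highest means and the smallest FDR were named, with the 5 largest and 5 smallest ratios and the members nearest the threshold; further members were added. Members and lists were chosen with earlier results of these data known. The differential list is itself selected by an unstated rule, and 93.8% of its transcripts reached p under 0.05 in some comparison. The code for counts and medians was checked on simulated data, which lends the results no statistical support. Alternatives covered thresholds, low values, pseudocounts, transcript choice and scaling. Python 3.11.15, numpy 2.4.6, pandas 2.3.3 and matplotlib 3.10.9 were used.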

Additional observations from a re-analysis of the deposited data

How the results depend on the processing

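Of 81 alternative values, 61 stayed within the limits set (1.5-fold for a count or a spread of Sm levels, 0.1 for a log2 median). Many of the 61 were counts of 0 that stayed 0. A stricter FDR, a fold minimum or an RPKM minimum could not have raised those, and the RPKM minimum left out no member. The tally is therefore no measure of robustness. The 13 components higher in dry-off than in lactation became 5 at FDR below 0.01. The share of all components at that threshold was not counted, so the 5 cannot be set beside a background. At an unadjusted p under 0.05 the 13 became 22, beside 85.6% of all components. Unadjusted, 11 were higher in non-lactation than in lactation, beside 41.4% of all components. In the same way 12 were lower in non-lactation than in dry-off, beside 38.1%. By FDR both counts were 0. The median log2 ratio of dry-off over lactation (1.96) was 1.64 with a pseudocount of 1, 1.78 without the heat shock components, 0.95 centred on ribosomal protein transcripts and 0.33 rescaled without LALBA and GLYCAM1, and it turned to −0.13 when centred on the whole table. That of non-lactation over lactation (1.03) was 0.63 on ribosomal proteins and 0.13 without the milk transcripts, and turned to −0.36 on the table. That of non-lactation over dry-off (−0.91) was −0.69 over every transcript and also without the heat shock components, −0.73 with 1 component per description, −0.21 centred on the table, −0.28 on ribosomal proteins and −0.18 without the milk transcripts. With transcripts of a component summed, the highest Sm mean was 5.76 times the lowest in dry-off and 5.74 times in non-lactation, against 3.22 and 3.12. Centring on the table used the median over all its transcripts, not over components. Leaving out the heat shock components, summing transcripts, 1 component per description and the milk rescaling were chosen after seeing the data. Keeping members shared with the endoplasmic reticulum pathway was not run, because no pathway row used here has that name and the exclusion had nothing to act on. No paired analysis was possible because only stage means were analysed, which also prevents leaving out a replicate; what depth limits is unknown.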
